A study of Mus musculus with 6 samples.

Results

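The genes described here are 8 regulators of the heart: the homeobox gene Nkx2-5, the bHLH genes Hand1 and Hand2, the Iroquois genes Irx3, Irx4 and Irx5, and the Hey genes Hey1 and Hey2. They were chosen by name, and they are 8 of the 21887 protein-coding genes of the RefSeq table used. Acetylation of histone H3 at lysine 27 (H3K27ac), a mark of active enhancers and promoters, was mapped by CUT&RUN, in which an antibody directs a nuclease to cut out the marked chromatin. The nuclei were sorted from left ventricle with an antibody to PCM-1, a protein on the surface of cardiomyocyte nuclei. Mice were of the FVB strain and 8 to 12 weeks old, and were either WT or HOM, the latter labelled as a CRISPR deletion of Nppa and Nppb, the paired natriuretic peptide genes. There were 3 libraries for each genotype, called WT1 to WT3 and HOM1 to HOM3 below, with peaks called separately in each. The labels also name Myh6-MerCreMer, nTnG and Sun1/sfGFP lines as part of the colony, without saying whether any of these alleles was in the mice profiled. Whether the 3 libraries of a genotype stem from different animals is not stated, so a p-value below reflects only how these samples vary, in part perhaps for technical reasons.

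Nkx2-5 is a homeodomain factor that marks cardiac muscle from its earliest precursors and acts together with GATA and T-box factors. Hand1 and Hand2 are basic helix-loop-helix factors that pair with E-proteins and are known for the growth of the ventricles. Irx4 is the ventricular Iroquois factor, while Irx3 and Irx5 are known for fast conduction and for the gradient of repolarizing potassium current across the ventricular wall. Hey1 and Hey2 are repressors induced by Notch signalling, known for the atrial and the ventricular side of the atrioventricular boundary respectively.

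For each gene, all peaks that overlapped the annotated gene or the 50 kb on either side of it were taken. A peak was called gene-end where it overlapped the 1 kb on either side of an annotated end, internal where it overlapped the gene elsewhere, and flanking otherwise. Covered length is the number of bases under peaks in this window. The lists were very unequal, with 21340, 72362 and 106605 peaks in WT1 to WT3 and 48102, 1462 and 15184 in HOM1 to HOM3. HOM2 stood apart: its peaks covered 0.296 Mb of the genome against 4.54 to 55.7 Mb in the other libraries, and its median peak width was 84 bp against 232 to 291 bp. The stretch from Nppb to Nppa held 1, 2 and 4 peaks in WT1 to WT3 and 0 in each HOM library. Of 10 cardiomyocyte markers, 8, 10, 10, 10, 0 and 9 had a gene-end peak in WT1, WT2, WT3, HOM1, HOM2 and HOM3. None of 10 endothelial and endocardial, 8 fibroblast or 5 epicardial markers had one in any library. Of 6 smooth muscle and pericyte markers, Cspg4 alone had one, and of 5 immune markers Spi1 and Cd68 had one. The shares of all protein-coding genes with one were 11.5, 31.8, 42.2, 22.7, 0.379 and 7.99% in the same order. The immune share was 40.0% in WT2, WT3 and HOM1, near or above that of all genes. A peak within 50 kb was found at 2, 7, 7, 5, 1 and 2 of the endothelial and endocardial markers. Of all genes, 43.9, 68.4, 75.1, 58.8, 4.97 and 36.1% had such a peak.

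The 8 genes fell into 3 levels of acetylation. Irx4, Nkx2-5 and Hand2 lay in broad, strongly marked territories in all 5 libraries other than HOM2. Irx3, Irx5 and Hey2 had most of their peaks in WT2 and WT3, the longest lists, and at most 1 in each of the other libraries. Hey1 had 2 peaks in WT3 alone, and Hand1 had none in any library. Gene-end peaks were found at 4, 4, 7, 5, 0 and 3 of the 8 genes in WT1, WT2, WT3, HOM1, HOM2 and HOM3. Of all protein-coding genes, 11.5, 31.8, 42.2, 22.7, 0.379 and 7.99% had one in the same libraries. Irx4, Nkx2-5 and Hand2 had a gene-end peak in at least 2 libraries of each genotype, 3 of 8 genes against 7.03% of all genes. This count rests on HOM1 and HOM3, since it was 0 without either of them. Any peak in the window was found at 5, 6, 7, 6, 1 and 3 of the 8 genes in the 6 libraries, against 43.9, 68.4, 75.1, 58.8, 4.97 and 36.1% of all genes. The 3 strongly marked genes had one in at least 2 libraries of each genotype, against 35.6% of all genes, so at this looser measure the 8 genes were near the background.

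**Figure D1:**
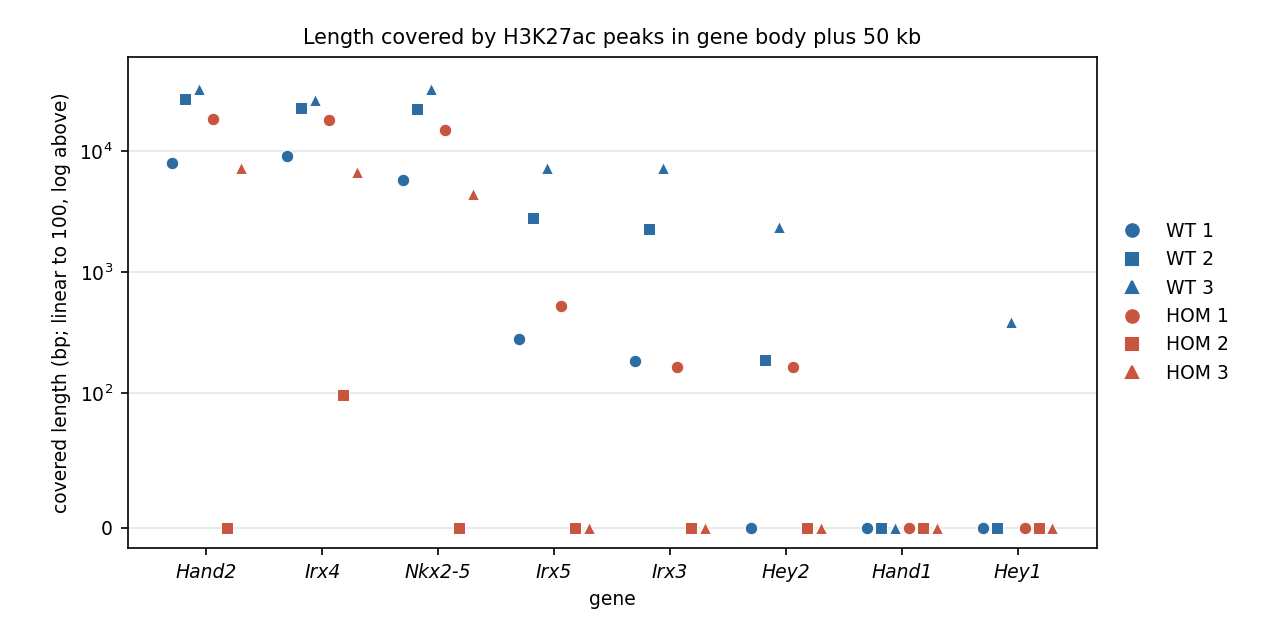
Length covered by H3K27ac peaks, in bp (vertical axis, linear below 100 and logarithmic above), in the annotated gene plus 50 kb on each side, for each of the 8 genes; each point is 1 library, blue for WT and red for HOM. Hand2, Irx4 and Nkx2-5 lie between 4453 and 32715 bp in the 5 libraries other than HOM2, and Hand1 lies at 0 in all 6.

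The start region was read for the genes with a promoter in the RefSeq promoter table of GRCm38.p6 (the same assembly as mm10), which matched 5 of the 8 genes: Nkx2-5, Hand2, Irx3, Irx4 and Hey2. Hand1, Irx5 and Hey1 were not matched. The 250 bases before the start of transcription are shown for the 4 genes whose promoter window, from 250 bases before to 50 after the start, was touched by a peak in 2 or more libraries. They let the reader see the DNA at the edge of the acetylated stretches described below. The intervals are chr17:26841566-26841815 (minus strand) for Nkx2-5, chr8:57320733-57320982 (plus strand) for Hand2, chr13:73260247-73260496 (plus strand) for Irx4 and chr8:91801655-91801904 (minus strand) for Irx3. Each is written 5′ to 3′ along the gene, and capitals mark matches on either strand to CCAAT, to GATAA (the core letters of a GATA factor site) or to TNAAGTG (those of a site for Nkx2-5).
Nkx2-5: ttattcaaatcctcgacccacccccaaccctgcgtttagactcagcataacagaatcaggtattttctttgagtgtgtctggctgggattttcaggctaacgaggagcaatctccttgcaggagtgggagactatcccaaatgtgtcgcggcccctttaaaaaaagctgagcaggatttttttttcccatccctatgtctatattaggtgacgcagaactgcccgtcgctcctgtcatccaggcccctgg
Hand2: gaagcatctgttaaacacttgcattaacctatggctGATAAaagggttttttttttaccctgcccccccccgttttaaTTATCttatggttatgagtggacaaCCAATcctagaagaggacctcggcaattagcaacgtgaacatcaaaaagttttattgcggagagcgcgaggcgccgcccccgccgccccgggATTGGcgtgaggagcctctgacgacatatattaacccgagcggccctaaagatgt
Irx4: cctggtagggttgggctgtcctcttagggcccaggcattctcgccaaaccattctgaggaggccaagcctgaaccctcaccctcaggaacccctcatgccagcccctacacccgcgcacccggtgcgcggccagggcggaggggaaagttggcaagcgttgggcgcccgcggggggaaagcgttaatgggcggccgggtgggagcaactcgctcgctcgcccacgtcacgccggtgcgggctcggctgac
Irx3: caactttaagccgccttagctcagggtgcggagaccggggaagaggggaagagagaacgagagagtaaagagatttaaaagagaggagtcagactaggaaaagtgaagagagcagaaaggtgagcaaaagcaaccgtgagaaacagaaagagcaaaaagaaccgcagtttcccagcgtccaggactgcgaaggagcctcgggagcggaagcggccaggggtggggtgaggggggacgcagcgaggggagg

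Of the 4 stretches shown, only that of Hand2 held any of these letters, with GATAA matches at -214 and -172 and CCAAT matches at -147 and -55, counted from the start. In the same 250 bases of all 21263 promoters of the table, CCAAT was found in 35.4%, GATAA in 20.5% and TNAAGTG in 9.4%. The general letters bound by bHLH pairs, CANNTG, were found on either strand in 62.8% of all promoters. They were present in Nkx2-5 (1 match) and Hand2 (2 matches) and absent from Irx3 and Irx4. Of the letters of an E-box subset, CACGTG, 6.6% of all promoters held a match, and the TATAAA letters were in 11.6%. None of the 5 matched genes held either of these. The number of CG dinucleotides in the 250 bases was 22 in Irx4 and in Hey2, 15 in Hand2, 13 in Irx3 and 8 in Nkx2-5, against a median of 10. The promoter window of Nkx2-5 was touched by peaks in 5 of 6 libraries, over 47 to 145 bases, and that of Hey2 in none. With 5 genes, no relation between CG number and peaks is read. Irx4, with the same 22 CG as Hey2, was touched in 3 libraries, and Hand2 and Irx3 in 2 each.

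Nkx2-5 (gene ID 18091) lies at chr17:26838664-26844988 and is read from the minus strand, with the start of transcription of the promoter table at 26841565. The annotated gene extends 3423 bp upstream of that start. The window held 18, 31 and 38 peaks in WT1, WT2 and WT3 and 37, 0 and 14 in HOM1, HOM2 and HOM3. These covered 5708, 22317 and 32587 bp in WT and 15029, 0 and 4453 bp in HOM. Both genotypes thus had well covered and less covered libraries, in the order of the length of their lists. Among all protein-coding genes the window of Nkx2-5 stood at the 98.6, 98.6 and 98.2 percentile of covered length in WT and at 98.8 in both HOM1 and HOM3.

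More of the acetylation at Nkx2-5 lay upstream than downstream. Upstream of the annotated gene, peaks covered 3591, 15136, 23514, 10057 and 2680 bp in WT1, WT2, WT3, HOM1 and HOM3. Downstream they covered 177, 2581, 3899, 888 and 0 bp. In each of the 5 libraries the upstream side was therefore the more covered one. The upstream peaks reached 40.4 to 48.6 kb beyond the gene and lay in part over the lncRNA genes LOC115488773 and Gm17382, both under peaks in 5 libraries. The widest peaks, of 4555 bp in WT2 and 4836 bp in WT3, ran from 142 and 118 bp before the start to 4696 and 4953 bp before it, across the upstream end of the annotated gene. In WT1, HOM1 and HOM3 the widest peaks were 715, 1489 and 565 bp. Bases covered in all 5 libraries came to 1575 bp in 9 stretches, centred between 273 and 23484 bp before the start, so none of them was downstream of it.

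The start of Nkx2-5 itself was not under a peak in WT1, WT2, WT3 or HOM3. The nearest upstream peaks ended 153, 142, 118 and 204 bp from it in those libraries. In HOM1 a peak at chr17:26841332-26841567 covered the start and reached only 2 bp beyond it. A bare start between flanking peaks was usual in these lists: of starts with a peak within 1 kb on both sides, 64.7, 66.2, 55.4, 68.6 and 53.9% were uncovered in WT1, WT2, WT3, HOM1 and HOM3. The peak with the highest fold over background at Nkx2-5 had a fold of 7.26, 10.1 and 15.7 in WT1 to WT3 and of 8.3 and 6.3 in HOM1 and HOM3. Its percentile within its own list was 97.2, 98.7, 99.6, 98.5 and 92.3. The place of that peak differed between libraries, with the summit 10985, 2208, 4569, 6527 and 23304 bp upstream of the start. Ranks from lists of different length show no change between libraries and are given only as positions within each list.

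**Figure D2:**
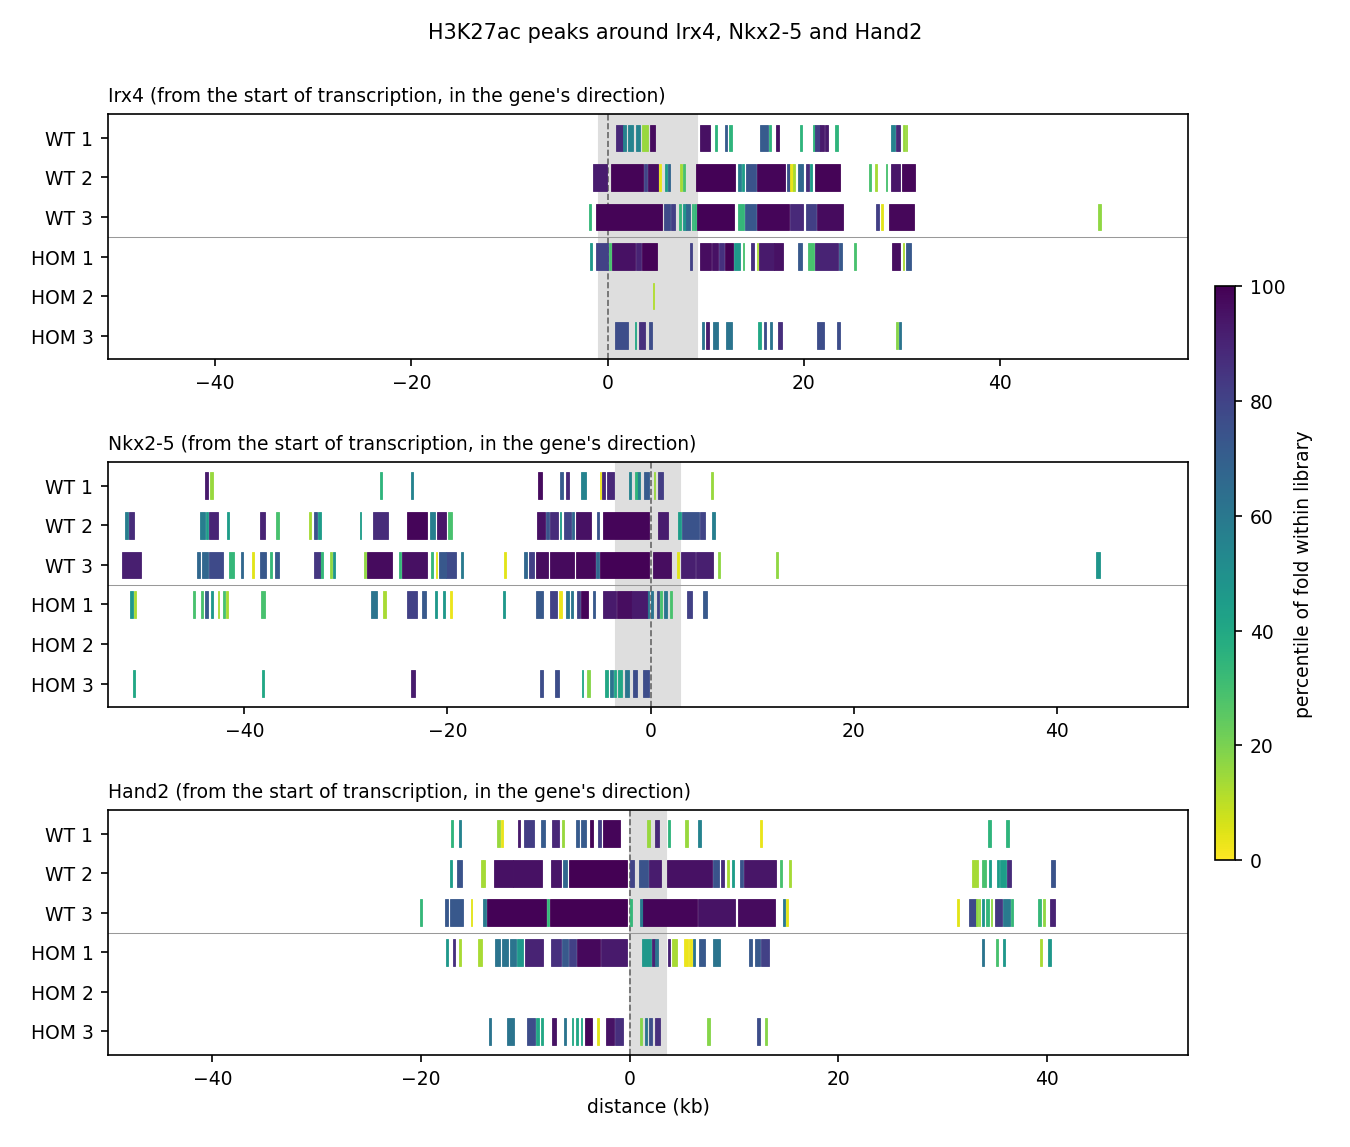
H3K27ac peaks around Irx4, Nkx2-5 and Hand2 against the distance from the start of transcription in kb, positive in the direction of the gene; each row is 1 library, each bar 1 peak coloured by the percentile of its fold within its own list, and grey marks the annotated gene. Peaks lie on the downstream side for Irx4, mostly on the upstream side for Nkx2-5 and on both sides for Hand2, and HOM2 has a single peak, at Irx4.

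Hand2 (gene ID 15111) lies at chr8:57320983-57324517 on the plus strand. Its window held 22, 28 and 28 peaks in WT1 to WT3 and 32, 0 and 21 in HOM1 to HOM3. The covered length was 8000, 26777 and 32715 bp in WT and 18202, 0 and 7241 bp in HOM. Apart from HOM2, the values of the genotypes overlapped. This window stood at the 99.3, 99.1 and 98.2 percentile of all genes in WT1 to WT3 and at 99.3 and 99.6 in HOM1 and HOM3. Over the 5 libraries Hand2 had the largest median covered length of the 8 genes, 18202 bp, but Irx4 at 17970 bp and Nkx2-5 at 15029 bp were well within its range of 7241 to 32715 bp.

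The leading peak of Hand2 was at the same place in every library other than HOM2. Its summit was 3684, 3674, 3660, 3563 and 3728 bp upstream of the start in WT1, WT2, WT3, HOM1 and HOM3. This position is inside Hand2os1, an lncRNA gene at chr8:57304261-57320859 that lies directly upstream of Hand2. That peak had a fold of 8.47, 12.5 and 16.1 in WT1 to WT3 and of 7.92 and 7.99 in HOM1 and HOM3, at the 98.8, 99.8, 99.7, 97.8 and 98.2 percentile of the respective lists. Its width ranged from 282 bp in WT1 and 679 bp in HOM3 to 2255 bp in HOM1, 5603 bp in WT2 and 7410 bp in WT3. In the longer lists it was thus part of a continuous acetylated block that ended 234 and 221 bp before the start, as the line of dark bars upstream of Hand2 in the map of peaks shows.

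Of the 3290 bp at Hand2 covered in all 5 libraries, in 12 stretches, those upstream of the start all lay in Hand2os1. The longest, chr8:57318751-57319478 (728 bp), was centred 1869 bp before the start, and the stretch under the leading peaks, chr8:57317170-57317406 (237 bp), was centred 3695 bp before it. Further stretches were centred 1895 and 2611 bp past the start, toward the distal end of the gene. Upstream peaks covered 6016, 12585, 15335, 11594 and 5436 bp in WT1, WT2, WT3, HOM1 and HOM3. Downstream they covered 1324, 11892, 14675, 5235 and 654 bp. The sides were close to even in WT2 and WT3, and the upstream side was the larger in WT1, HOM1 and HOM3. Downstream peaks lay over the lncRNA genes Gm34030 and Hdnr in all 5 libraries.

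No peak covered the start of Hand2 in any library. The bare stretch around it was 305 bp in WT2 and 296 bp in WT3, and 2585, 1451 and 1651 bp in WT1, HOM1 and HOM3. In WT2 and WT3 the upstream block reached 17 and 30 bp into the promoter window at its upstream end, the first letters of the sequence printed above, so most of those 250 bases lay in the gap. Hand1 (gene ID 15110; chr11:57828713-57832147), the other Hand gene, had 0 peaks within 50 kb in all 6 libraries. Of all protein-coding genes, 23.7% likewise had no peak in their window in any library. A list of called peaks shows only that no stretch near Hand1 passed the authors' threshold.

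**Figure D3:**
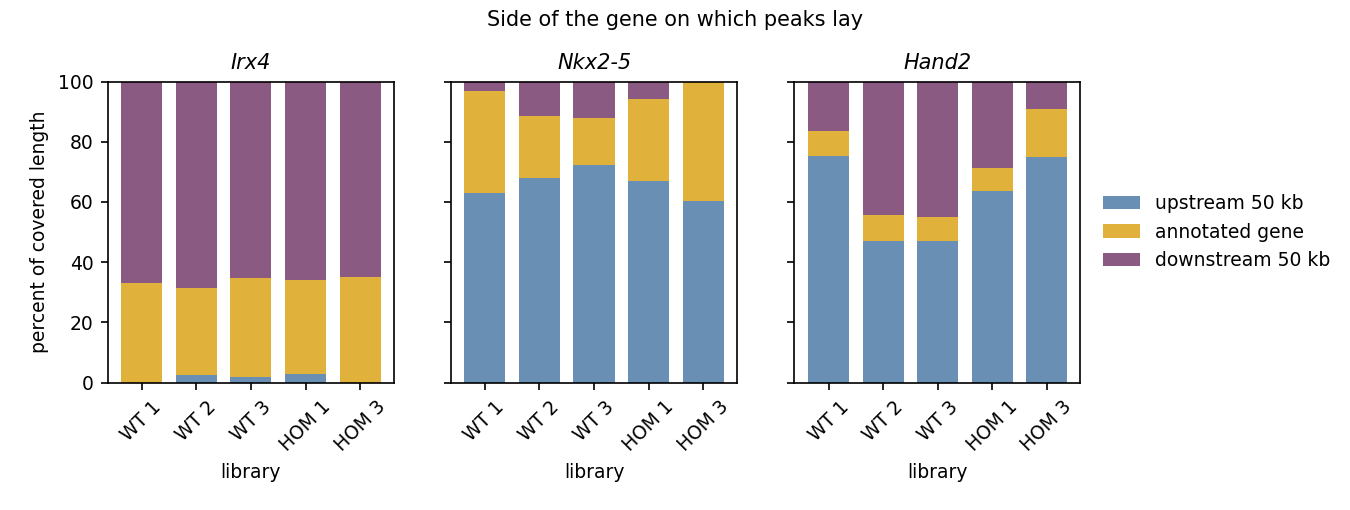
Percent of the covered length (vertical axis) that lay in the 50 kb upstream, in the annotated gene or in the 50 kb downstream of it, for Irx4, Nkx2-5 and Hand2 in the 5 libraries other than HOM2. The downstream part makes up most of each bar for Irx4 and the upstream part most of each bar for Nkx2-5, while Hand2 is divided between both.

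Irx4 (gene ID 50916) lies at chr13:73259589-73269622 on the plus strand, with the start of transcription at 73260497. The window held 23, 26 and 20 peaks in WT1 to WT3 and 25, 1 and 16 in HOM1 to HOM3. The covered length was 9040, 22466 and 26364 bp in WT and 17970, 99 and 6728 bp in HOM. Irx4 was the only one of the 8 genes with a peak in HOM2, a 99 bp peak at chr13:73265086-73265184 inside the gene whose fold of 5.13 was at the 11.9 percentile of that list. The window of Irx4 stood at the 99.5, 98.6 and 97.2 percentile of covered length in WT1 to WT3 and at 99.2 and 99.5 in HOM1 and HOM3.

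Acetylation at Irx4 lay over the gene and downstream of it. Downstream peaks covered 6061, 15414, 17174, 11823 and 4371 bp in WT1, WT2, WT3, HOM1 and HOM3. Upstream peaks covered 0, 564, 458, 495 and 0 bp, and no upstream peak began more than 1.0 kb from the gene. This is the reverse of Nkx2-5, and it held in each of the 5 libraries. The peaks in the gene itself covered 29.7, 64.7 and 87.0% of its length in WT1 to WT3 and 56.3 and 23.5% in HOM1 and HOM3. The widest were 6640 bp in WT3, from 1139 bp before to 5500 bp past the start, and 3996 bp in WT2, across the distal end of the gene.

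The leading peak of Irx4 was at nearly the same place in 3 libraries. Its summit was 10211, 9969 and 10161 bp past the start in WT2, WT3 and HOM3, just past the distal end of the gene. In WT1 it was at 4470 bp, inside the gene and near the single HOM2 summit at 4602 bp, and in HOM1 at 12442 bp. The fold was 7.26, 11.3 and 14.8 in WT1 to WT3 and 10.2 and 6.3 in HOM1 and HOM3, at the 97.2, 99.5, 99.3, 99.6 and 92.3 percentile of their lists. Bases covered in all 5 libraries came to 4241 bp in 20 stretches, more than at any other of the 8 genes. They were centred from 1183 to 29716 bp past the start. Of these, chr13:73261353-73262008 (656 bp) was the longest. The start of Irx4 was under a peak in WT3 and HOM1, and the nearest downstream peak began 856, 349 and 789 bp past it in WT1, WT2 and HOM3. The CG-rich sequence printed above was covered over its whole promoter window of 300 bases in WT3, over 273 bases in HOM1 and over 157 in WT2.

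**Figure D4:**
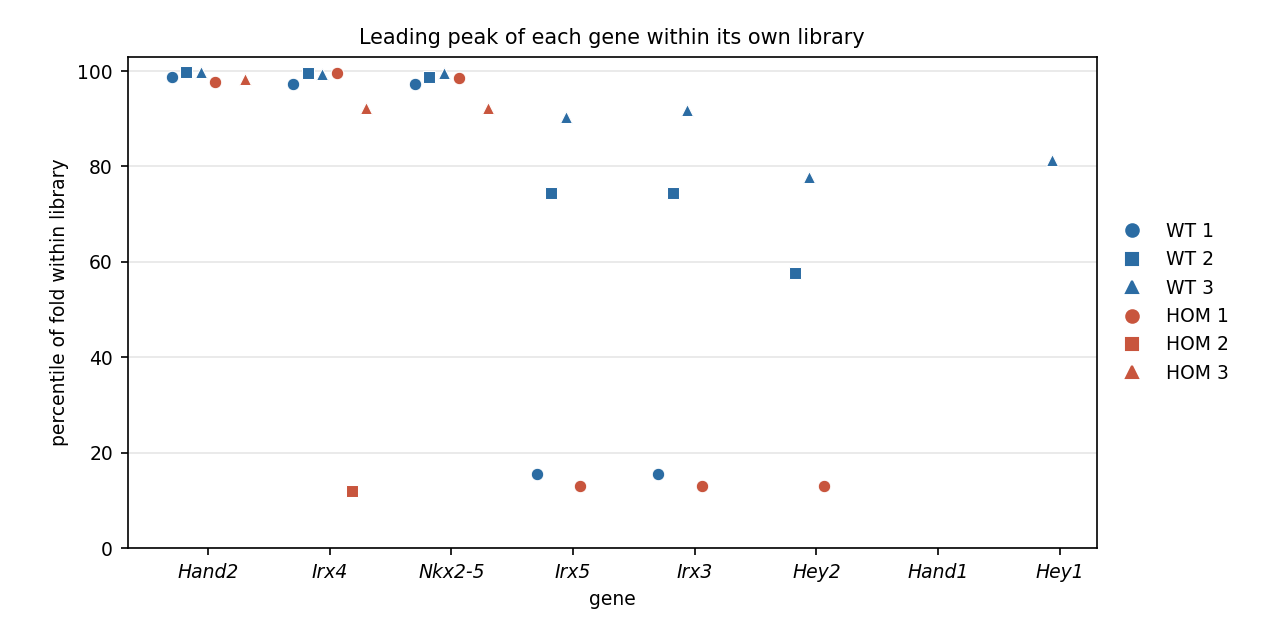
Percentile of fold, within its own list (vertical axis), of the peak with the highest fold in the window of each gene; each point is 1 library, blue for WT and red for HOM, and a gene without a peak has no point. Hand2, Irx4 and Nkx2-5 lie at 92.3 or above in the 5 libraries other than HOM2, and the leading peaks of Irx3 and Irx5 range from 13.0 to 91.8.

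When peaks within 10 kb of each other were joined into domains, the domain at Irx4 ranked 36 of 7632 by covered length in WT1, 119 of 16690 in WT2, 278 of 20864 in WT3, 58 of 12399 in HOM1 and 32 of 5981 in HOM3. The domain at Hand2 ranked 57, 96, 234, 63 and 24 in the same libraries, and that at Nkx2-5 ranked 155, 122, 184, 139 and 146. All 3 were within the top 2.44% of domains in these libraries. The domains were 29.1 to 33.1 kb long at Irx4, 26.6 to 35.2 kb at Hand2 and 10.7 to 64.6 kb at Nkx2-5, the last being the most variable. By covered length, the windows of these 3 genes were in the top 5% of genes in all 5 libraries other than HOM2, as were 2.77% of all genes. On lists cut to equal length, the 15184 peaks of lowest p-value in each of the 5, they stood at the 98.5 percentile or higher. Among peaks with tied p-values the wider ones were kept, which can favour windows with wide peaks.

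Irx3 (gene ID 16373) and Irx5 (gene ID 54352) lie on chromosome 8 at chr8:91798511-91801654 and chr8:92357796-92361456. Irx3 had 1, 8 and 11 peaks in WT1 to WT3 and 1, 0 and 0 in HOM1 to HOM3, and the counts at Irx5 were the same. Peaks covered 183, 2288 and 7198 bp at Irx3 in WT and 166, 0 and 0 bp in HOM. At Irx5 they covered 280, 2785 and 7231 bp in WT and 530, 0 and 0 bp in HOM. The windows of the genes do not overlap, so these are separate peaks. Both genes were most covered in WT3 and then in WT2. In WT3 both windows were at the 77.2 and 77.3 percentile of all genes, in WT1 at 60.1 and 66.3, and in HOM1 at 42.5 and 57.2.

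At Irx3 the start was under a peak in WT2 (chr8:91801628-91801821) and in WT3 (chr8:91800810-91801957), which took in 194 and 300 bases of the promoter window. In HOM1 the single peak was at the distal end of the gene, 3467 bp past the start. The strongest peak of Irx3 in WT3, at chr8:91798947-91799531, had a fold of 8.96 and was at the 91.8 percentile. The widest was 2036 bp, from 12952 to 10917 bp upstream, over the lncRNA gene Irx3os. At Irx5 nearly all peaks lay on the side of the lower coordinates, over the lncRNA gene Crnde at chr8:92326031-92356120. There they covered 280, 2600 and 6890 bp in WT1 to WT3 and 530 bp in HOM1, and no peak was above the gene in any library. The peaks of WT1 and HOM1 at both genes were near the bottom of their lists, with fold at the 15.45 percentile in WT1 and the 12.97 percentile in HOM1.

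Hey2 (gene ID 15214; chr10:30832359-30842783, minus strand) had 0, 1 and 6 peaks in WT1 to WT3 and 1, 0 and 0 in HOM1 to HOM3. They covered 0, 188 and 2377 bp in WT and 166, 0 and 0 bp in HOM. Peaks of 3 libraries thus marked the gene, all in the first kilobases past the start or shortly before it. The nearest peak began 51, 988 and 1595 bp past the start in WT3, HOM1 and WT2. The strongest was at the 77.7 percentile of fold in WT3, at 57.6 in WT2 and at 13.0 in HOM1. Hey1 (gene ID 15213; chr3:8663359-8667038) had 2 peaks in WT3, 223 and 162 bp wide, within 1.0 kb above the upper gene end, and 0 in the other 5 libraries. The stronger was at the 81.3 percentile of its list.

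**Figure D5:**
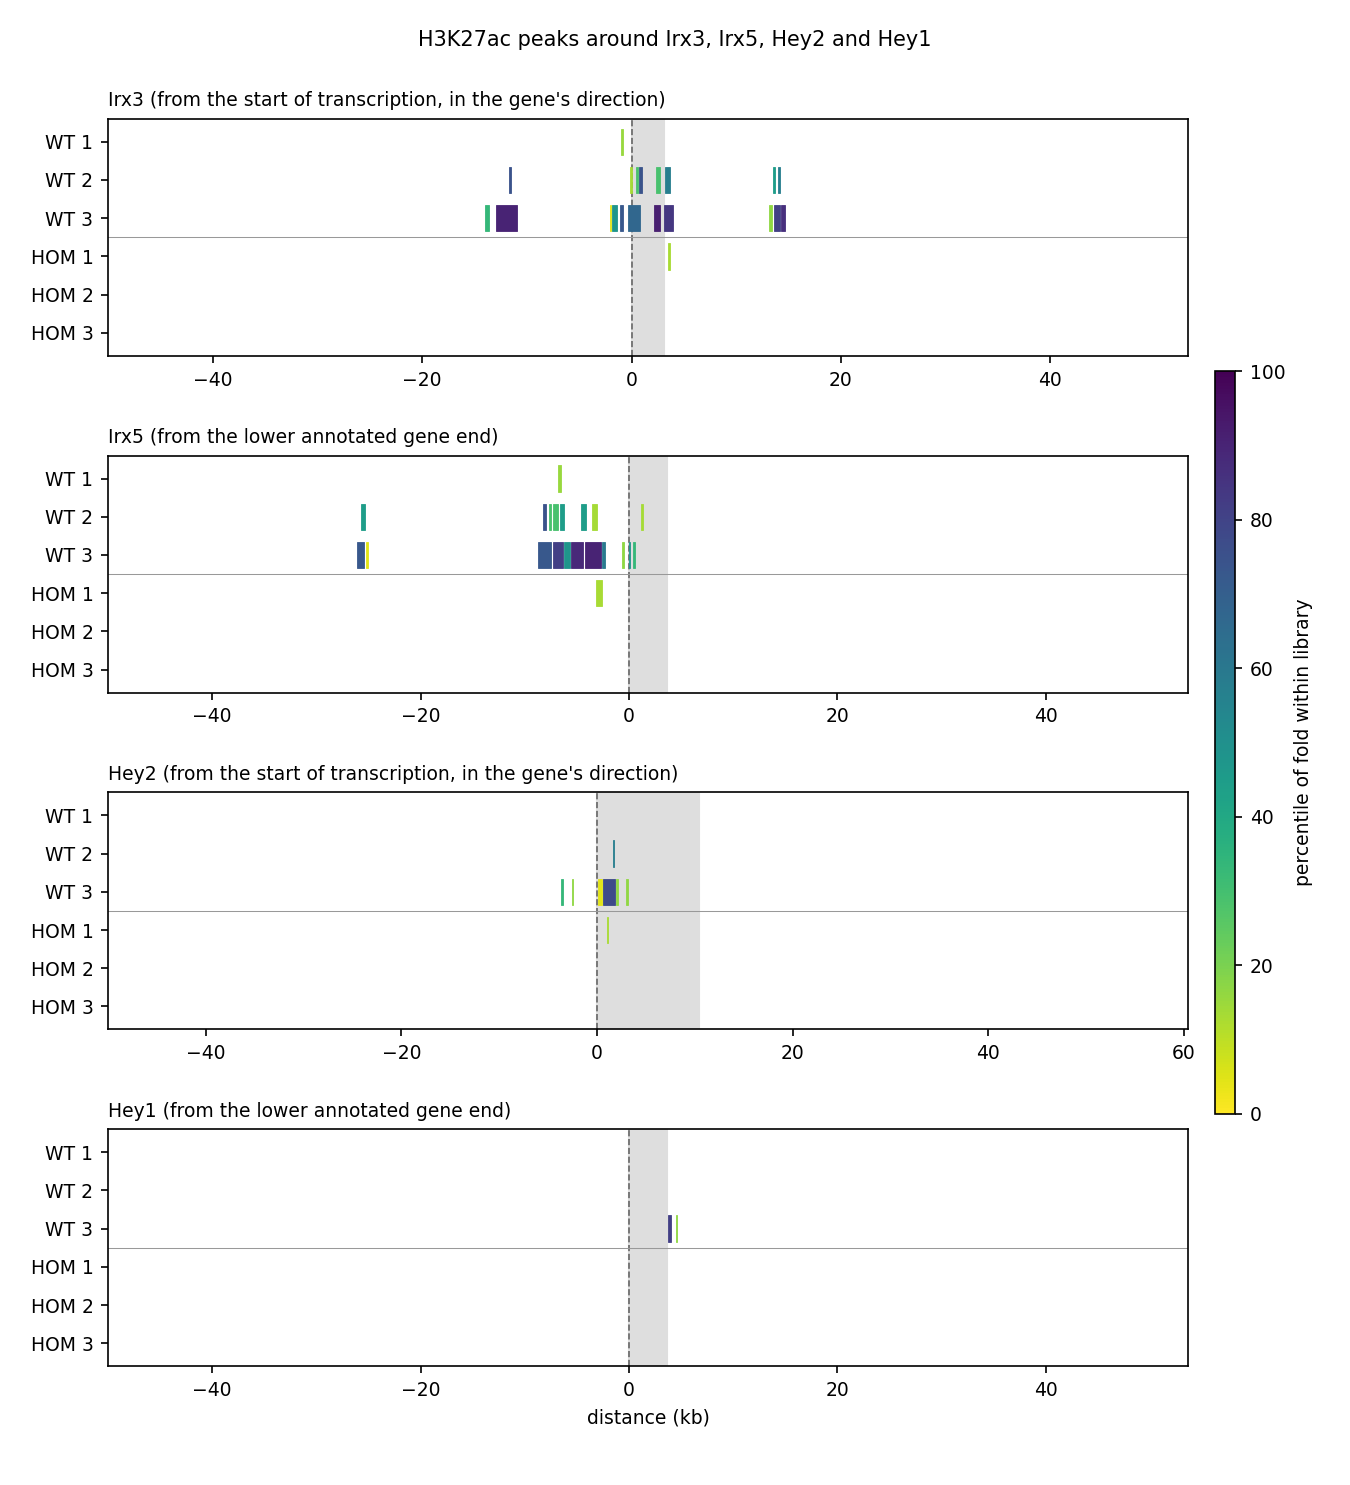
H3K27ac peaks around Irx3, Irx5, Hey2 and Hey1, with distance in kb from the start of transcription in the direction of the gene (Irx3, Hey2) or from the lower annotated end (Irx5, Hey1); each row is 1 library, each bar 1 peak coloured by the percentile of its fold within its own list, and grey marks the annotated gene. WT2 and WT3 hold nearly all peaks of Irx3 and Irx5, HOM1 has 1 peak at each of Irx3, Irx5 and Hey2, and HOM2 and HOM3 have none.

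Most peaks of the 8 genes were flanking ones. The windows held 65, 102 and 116 peaks in WT1 to WT3 and 97, 1 and 51 in HOM1 to HOM3. Flanking peaks were 70.8, 74.5, 73.3, 73.2 and 64.7% of them in WT1, WT2, WT3, HOM1 and HOM3, and gene-end peaks 9.2, 14.7, 21.6, 14.4 and 17.6%. Over the windows of all protein-coding genes, flanking peaks were 61.4, 61.0, 60.9, 60.7 and 62.5% and gene-end peaks 8.0, 8.8, 9.0, 8.5 and 7.6%. Gene-end peaks had a median width of 566, 808, 397, 343 and 310 bp, against 241, 286, 291, 260 and 232 bp for all peaks of the same lists. Flanking peaks had a median width of 258, 342, 369, 338 and 245 bp. In each of these 5 libraries both kinds were wider in the median than the whole list. Internal peaks had a median width of 363, 206, 272.5, 286 and 328 bp, narrower than the whole list in WT2 and WT3. Most peaks of each kind lay at Irx4, Hand2 and Nkx2-5, and the width of each kind over all genes was not computed.

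WT and HOM libraries were compared by the covered length of each window per Mb that the library covered genome wide to put libraries of unequal total on one scale. The lowest two-sided p that an exact permutation of 3 and 3 libraries can reach is 0.1, which leaves every gene above 0.05. At Irx4 the values were 1351, 711 and 474 bp per Mb in WT1 to WT3 and 1045, 335 and 1481 in HOM1 to HOM3. The WT mean was 845 ± 454 and the HOM mean 954 ± 579 (SD, n = 3 each), with an exact permutation p of 0.9. For Hand2 the values were 1196, 847 and 588 in WT and 1058, 0 and 1594 in HOM. Its means were 877 ± 305 and 884 ± 811 (SD, n = 3 each), with an exact permutation p of 1.0. For Nkx2-5 they were 853, 706 and 585 in WT and 874, 0 and 980 in HOM. Its means were 715 ± 134 and 618 ± 538 (SD, n = 3 each), with an exact permutation p of 1.0.

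With all 6 libraries, the genotypes differed at these 3 genes by less than the SD within either genotype. Without HOM2, HOM minus WT was 449.6 bp per Mb at Hand2, 418.0 at Irx4 and 212.4 at Nkx2-5. The WT SDs were 305.1, 453.9 and 134.1, and the exact permutation p without HOM2 was 0.3, 0.4 and 0.2. The sign of the difference also moved with single libraries: without HOM2, HOM minus WT at Nkx2-5 was 212.4 bp per Mb in place of -96.7, and without HOM3 it was -155.2 at Irx4 and -347.6 at Hand2 in place of 108.6 and 7.5. Without WT3 it was -77.1 at Irx4 and -137.1 at Hand2, and Hand2 was also lower in HOM without WT2 (-7.4) or without HOM1 (-79.6). Of the bases covered in HOM1, 92.8% at Nkx2-5, 97.2% at Hand2 and 95.7% at Irx4 were also covered in at least 1 WT library, against 91.1% genome wide. In HOM3 this was 100% at each of the 3 genes, against 96.3% genome wide. Of the bases covered in at least 1 WT library, HOM1 covered 40.5% at Nkx2-5, 51.7% at Hand2 and 62.3% at Irx4, against 25.3% genome wide. HOM3 covered 12.9, 21.2 and 24.4% of them, against 7.1% genome wide. The 3 genes were grouped by strong marking in libraries that include HOM1 and HOM3, so a share above that of the genome is no separate result. At Irx3, Irx5, Hey2 and Hey1, HOM1 covered 2.2, 5.5, 7.0 and 0.0% of such bases, and HOM3 covered 0.0% at each.

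Per Mb covered genome wide, Irx3 and Irx5 had less covered length in every HOM library than in every WT library. In absolute bp this did not hold for Irx5, where HOM1 had 530 bp and WT1 280 bp. At Irx3 the values were 27.3, 72.4 and 129.3 bp per Mb in WT1 to WT3 and 9.7, 0 and 0 in HOM1 to HOM3. The means were 76.3 ± 51.1 and 3.2 ± 5.6 (SD, n = 3 each), a difference of -73.1. At Irx5 the values were 41.8, 88.1 and 129.9 in WT and 30.8, 0 and 0 in HOM, with means of 86.6 ± 44.0 and 10.3 ± 17.8 (SD, n = 3 each) and a difference of -76.3. For each gene the exact permutation p was 0.1, the smallest the design allows, and the Benjamini-Hochberg adjusted exact permutation p over the 16710 genes with a covered window was 0.77.

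These were 2 of the 7 genes with a covered window, beside 10.5% of the 16710 such genes in the genome with every HOM library below every WT library. In the other direction, with every HOM library above every WT library, there were 0 of the 7 genes against 0.317%. Without HOM2, both HOM libraries were above every WT library at Nkx2-5. On the 5 lists cut to 15184 peaks this was so at Irx4. It had 1827 and 1481.3 bp per Mb in HOM1 and HOM3 and 1480.2, 1209 and 828 in WT1 to WT3, so HOM3 and WT1 were nearly equal. The share of all genes above in this way was not computed without HOM2, so neither is read as a difference. Over all genes tested the median difference was -19.3 bp per Mb, and 88.4% of genes were lower in HOM. Within WT, the values of Irx3 and Irx5 per Mb were higher the longer the list, while those of Irx4, Hand2 and Nkx2-5 were lower. HOM2 and HOM3 have the shortest lists of all 6. HOM1 has a longer list than WT1, 48102 against 21340 peaks. It was lower per Mb than WT1 at Irx3 (9.7 against 27.3) and at Irx5 (30.8 against 41.8). Each of these values rests on 1 peak, divided by 17.2 Mb in HOM1 and by 6.69 Mb in WT1. The peaks were 166 bp in HOM1 and 183 bp in WT1 at Irx3, and 530 and 280 bp at Irx5. What part list length had in these values was not tested. On the 5 lists cut to 15184 peaks, peaks at Irx3 and Irx5 were left in WT3 alone, covering 2990 and 2682 bp. With only the 1462 peaks of lowest p-value kept in every library, both genes were without a peak in all 6. Hey2 (-13.0 bp per Mb, exact permutation p 0.7) and Hey1 (-2.3, exact permutation p 1.0) had too few peaks for a direction to be read.

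WT1 and HOM1 also differed from the other libraries in chromosome Y peaks below 80 Mb, with 111 and 112 against 1 to 5. Between these libraries alone, HOM minus WT was -17.7 bp per Mb at Irx3 and -11.0 at Irx5. Among the remaining 4 it was -100.8 and -109.0. At Irx4 and Hand2 it was -306.2 and -137.3 between WT1 and HOM1 but 316.0 and 79.9 among the other 4, and at Nkx2-5 it was 20.7 and -155.4. What part chromosome Y content had in these values was not tested.

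The paralogues of the 8 genes mostly had no peak at their ends. Of 10 paralogues, 1, 1, 2, 1, 0 and 0 had a gene-end peak in WT1, WT2, WT3, HOM1, HOM2 and HOM3. This was under the share of all genes in WT2, WT3 and HOM1 (31.8, 42.2 and 22.7%) and near it in WT1 (11.5%). In HOM2 and HOM3 that share, 0.379 and 7.99%, is too low for 10 genes to show less. Heyl, the third Hey gene, had one in 3 WT libraries and 1 HOM library, with a covered length of 1677, 6214 and 10915 bp in WT1 to WT3 and 2219, 0 and 368 bp in HOM1 to HOM3. This was more than at Hey1 or Hey2 in each of the 5 libraries in which Heyl had a covered window. Irx1 and Irx2 share the chromosome 13 cluster with Irx4. Irx1 was covered over 1475 bp in WT3 and 204 bp in HOM1, Irx2 over 208 bp in WT3, and both were at 0 elsewhere. Irx6, which shares the chromosome 8 cluster with Irx3 and Irx5, was covered over 191 bp in WT3 alone. Of these 3 chromosome 13 genes, Irx4 thus had the most covered bases in each library.

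The cardiac partner factors of Nkx2-5 and Hand2 were widely marked. Of 12 core cardiac factors and partners, 7, 10, 11, 10, 1 and 7 had a gene-end peak in the 6 libraries, in the same order. These are 58.3, 83.3, 91.7, 83.3, 8.3 and 58.3%, against 11.5, 31.8, 42.2, 22.7, 0.379 and 7.99% of all genes. Gata4, a zinc finger partner of Nkx2-5, was covered over 17501, 51521 and 69767 bp in WT1 to WT3 and 38172, 132 and 11872 bp in HOM1 to HOM3, more than any of the 8 genes in each library. Gata6 and Mef2a had a gene-end peak in 3 WT and 2 HOM libraries, as did Irx4, Nkx2-5 and Hand2. Of the E-proteins that pair with Hand factors, Tcf3 and Tcf4 had a gene-end peak in 2 WT libraries and 1 HOM library, and Tcf12 in none.

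Of 13 Notch pathway genes upstream of Hey1 and Hey2, 3, 4, 8, 2, 0 and 1 had a gene-end peak in WT1, WT2, WT3, HOM1, HOM2 and HOM3. These are 23.1, 30.8, 61.5, 15.4, 0 and 7.7%, against 11.5, 31.8, 42.2, 22.7, 0.379 and 7.99% of all genes. They were above that share in WT1 and WT3, under it in HOM1 and close to it in WT2, HOM2 and HOM3. The coactivator gene Maml2 had one in 3 WT libraries and 1 HOM library, and Hes1, a further Notch target, in 2 and 1. Rbpj, the DNA-binding factor of the pathway, and the ligand genes Dll1, Dll4 and Jag2 had none. Of 8 ion channel and conduction genes linked to the Irx factors and Nkx2-5, 4, 5, 7, 4, 0 and 4 had one. Gja1, which encodes a connexin of gap junctions, and Kcnd3 and Kcnip2, which encode potassium channel subunits, had one in 3 WT and 2 HOM libraries. Kcnd2, known as a gene that Irx5 represses, had one in 2 WT libraries and no HOM library, and its covered length was 0, 1949 and 4148 bp in WT1 to WT3 and 397, 0 and 0 bp in HOM1 to HOM3.

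Of 6 atrial markers, Myl4 had a gene-end peak in WT3 and the others had none in any library. Of 6 conduction markers, 0, 1 and 3 had one in WT1 to WT3 and 0 in each HOM library. The shares of all genes were 11.5, 31.8 and 42.2% in WT1 to WT3 and 22.7, 0.379 and 7.99% in HOM1 to HOM3. With 6 genes, the counts were too small to be read as above or below these shares. Genes elsewhere in the genome had covered lengths much like those of the 3 strongly marked genes. Likeness was the mean absolute difference in log10 of covered bp plus 100 over the 6 libraries, among genes on another chromosome. Closest to Hand2 were Coq8a (0.015) and Cdc42bpa (0.018). Both lie on chromosome 1 and had the same covered length of 7955 bp in WT1 and of 6472 bp in HOM3. Whether the same peaks counted for both was not checked. They are 30783 and 205528 bp long against 3535 bp for Hand2, so their windows are longer. Closest to Irx4 were Pcare (0.037) and Acss1 (0.047), and closest to Nkx2-5 were Fubp1 (0.01) and Gm13090 (0.015).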

How the data were processed

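H3K27ac CUT&RUN peaks of 6 libraries, 3 for each genotype, were analysed. BWA, MACS2 and the build mm10 are named in the submitters' processing notes, but a version number for these is not given in the sources used here. Each library has 1 list in the narrow peak layout of MACS2, and the values in it are the authors' own. The authors deposited for every peak its score, its fold enrichment over background, its p-value as −log10 and its q-value as −log10. Only comparisons inside a list were based on these. The lists hold no counts, so the depth is unknown.

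Gene positions are those of RefSeq on GRCm38.p6, and positions are 1-based. Peaks were united in each library for covered lengths, and ranks of fold are mid-rank percentiles. Covered length per Mb was tested between genotypes with two-sided exact permutation tests over 20 assignments of libraries, adjusted by Benjamini-Hochberg over 16710 genes. The test was also run on 2000 simulated windows with far less spread within a genotype than these libraries had. There 200 of 200 planted differences reached the smallest p, as did 167 unplanted windows. Such a run checks the computation, not what the test can detect here. The 8 genes and the 13 comparison lists were chosen with earlier results of these data known. Outside the 8 genes, those named were neighbours under peaks in at least 2 libraries, the 2 genes most alike in covered length to each of the 3 most covered genes, and list members taken by the number of libraries with a gene-end peak, ties alphabetically. Irx1, Irx2, Irx6, Rbpj, Tcf12, Dll1, Dll4, Jag2 and Kcnd2 were named for their role after values were seen. A gene that the rule named is not reported here.

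The sample titles gave the genotype and the replicate number. Deviations of same-numbered libraries from their genotype's mean had correlations of -0.317, -0.295 and -0.229, so the numbers were not taken as pairs. Alternatives were other peak filters and list lengths, other windows and gene ends, absolute covered length, chromosome subsets, WT1 and HOM1 (over 100 chromosome Y peaks below 80 Mb) apart from the other libraries, and each library left out. Computation used pandas 2.3.3 and numpy 2.4.6 in Python 3.11.15, with scipy 1.17.1, and plots used matplotlib 3.10.9.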

Additional observations from a re-analysis of the deposited data

How the results depend on the processing

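Of 224 recomputed values, 20 turned sign and 21 moved otherwise (a difference to 0, or a count or rank). The other 183 did not by these measures, which were loose. A difference that kept its sign could change in size, and shifts of a count or rank within a set tolerance were allowed. The gene-end count of 2 in place of 3, at a −log10 q of at least 5, was thus counted as unmoved. So was the median fold percentile of the leading peak of Irx3, 74.4 without WT1 in place of 44.9. Some of the 183 could not move. The sign-flip test used the same differences, and percentiles of −log10 p and of fold were the same at the leading peaks. Genes with a gene-end peak in at least 2 libraries of each genotype, 3 of 8, fell to 1 with every list limited to 1462 peaks. With libraries left out one at a time they ranged from 0 (without HOM1 or HOM3) to 3. Genes with any window peak by the same rule ranged from 1 (without HOM1 or HOM3) to 3. Genes whose genotypes did not overlap in either direction were 2, Irx3 and Irx5, both lower in HOM. They became 0 with the stronger 50% of each list, with a −log10 q of at least 5 and with lists of 1462 peaks. There was 1 with a 100 kb window (Irx5, lower) and 1 in absolute covered bp (Irx3, lower). On 5 lists of 15184 peaks there was 1 (Irx4, higher in HOM, with HOM3 and WT1 nearly equal). With a library left out the count ranged from 2 to 3, Irx3 and Irx5 staying lower each time and Nkx2-5 being higher in HOM without HOM2. The share of all genes without overlap was not computed for these settings.

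At the 3 strongly marked genes the sign of HOM minus WT was not stable. Hand2 was -74.4 bp per Mb at a −log10 q of at least 5, -1370.9 on 1462 peaks, -68.9 with a 100 kb window, -14016.3 bp in absolute length, -137.3 between WT1 and HOM1 alone, and -347.6 to 449.6 with each library left out in turn, below 0 without WT2 (-7.4), WT3 (-137.1), HOM1 (-79.6) or HOM3 (-347.6). Irx4 was -189.9 at that −log10 q, -2251.4 on 1462 peaks, -11024.3 bp in absolute length and -306.2 between WT1 and HOM1 alone, and -155.2 (without HOM3) to 418.0 with a library left out, with -77.1 without WT3. Nkx2-5 was 77.0 on 15184 peaks, -277.9 to 212.4 (without HOM2) with a library left out and 20.7 between WT1 and HOM1. Hey2 was -21.1 to 0.2 (without WT3) with a library left out and 9.7 between WT1 and HOM1. The cause of these reversals was not tested.

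With the replicate numbers as a block (sign-flip test, smallest p 0.25), the differences at Irx3 and Irx5 were -73.1 and -76.3 with an exact p of 0.25, and no call changed. A window of fixed length around the middle of the gene, chosen after seeing the data, left 3 genes in the top 5% by covered length. The lists show where peaks passed a threshold, not how much signal lay below it.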

Other observations

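Nkx2-6, a paralogue of Nkx2-5, had a covered window in all 6 libraries without a gene-end peak in any of them. Its covered length was 319, 294 and 461 bp in WT1, WT2 and WT3 and 312, 141 and 482 bp in HOM1, HOM2 and HOM3. These values varied little beside those of Nkx2-5, which ranged from 0 to 32587 bp, and HOM2 had a peak at Nkx2-6 and none at Nkx2-5. Tbx5, a T-box partner of Nkx2-5, was also without a gene-end peak in the 6 libraries, although peaks covered 1759, 8336 and 14170 bp of its window in WT1 to WT3 and 5667, 151 and 2264 bp in HOM1 to HOM3. The endothelial marker gene Egfl7 likewise had no gene-end peak. Its window was covered over 3383, 12648 and 19329 bp in WT1 to WT3 and 7841, 57 and 3576 bp in HOM1 to HOM3. This was the most among the 10 endothelial and endocardial markers in each library.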
